A study of Mus musculus with 6 samples.

Results

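Integrins and laminins were described in RNA-Seq data from distal colon tissue of Gm31629-/- and WT mice. The members were the rows of the deposited table whose mouse symbol names an integrin alpha chain, an integrin beta chain from Itgb1 to Itgb8, or a laminin alpha, beta, or gamma chain. This gave 37 of 27546 listed genes, namely 26 integrins and 11 laminins. The groups were 3 Gm31629-/- mice, which lack the long noncoding RNA Gm31629 in every cell and not in the epithelium alone, and 3 littermate WT mice. All 6 were C57BL/6 mice aged 8 weeks that drank 3% dextran sulfate sodium (DSS), a polymer that injures the colonic epithelium, for 7 days and were sacrificed on day 8. There were no mice without DSS, so each value below is a difference between genotypes under injury. Each mouse gave 1 library, and values are FPKM (fragments per kilobase of gene, scaled to the mapped fragments of the library). Because they are given per length, levels can be compared between genes, but only roughly. Fragments of a gene that overlaps another gene model can be set aside or split. Where 3 values stand together they belong to mice 1, 2, and 3 of a group, and WT mice come first.

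Integrins are cell surface receptors made of 1 alpha and 1 beta chain. They bind proteins of the extracellular matrix or partner proteins on other cells, and they connect them to the actin or keratin cytoskeleton. Laminins are secreted trimers of an alpha, a beta, and a gamma chain, and they form the sheet of the basement membrane on which epithelium, endothelium, muscle, and nerve rest. In the colon, epithelial cells anchor to this sheet through laminin-binding integrins, smooth muscle and vessels are wrapped in laminins with other chains, and leukocytes use their own integrins to leave the blood and to be retained in the mucosa. The chains were therefore read in 4 classes by the cells best known to carry them, and an individual chain can be made by other cells as well. The classes were 9 epithelial chains, 14 stromal, muscle, and vascular chains, 8 leukocyte chains, and 6 chains that are made broadly or in few places.

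The libraries held 18005838 to 18795179 mapped fragments by an estimate from the smallest steps of the FPKM values, so depth was close to equal. The library of Gm31629-/- mouse 1 held 4 Y-linked genes and almost no Xist (0.00606 FPKM), whereas the other 5 libraries listed these 4 genes at 0 and Xist at 8.35 to 13.8 FPKM. The study's methods name male mice, which by these genes only the library of Gm31629-/- mouse 1 matches. The Gm31629-/- group was thus mixed in these sex-linked genes. Colon tissue was checked against its defining markers. The 15 epithelial markers summed to 12973 to 14171 FPKM in WT mice and 8094 to 9589 FPKM in Gm31629-/- mice. Krt8 was the largest part of this sum, with means of 4198 FPKM in WT and 2042 FPKM in Gm31629-/- mice. Epcam had means of 1104 and 1109 FPKM, and 12 of the 15 markers had log2 fold changes below 0. The 12 smooth muscle markers summed to 21.8 to 38.4 FPKM in WT mice and to 1176 to 1812 FPKM in Gm31629-/- mice. Markers of the muscle wall were thus nearly absent in the WT libraries and abundant in the others. In bulk tissue, fewer cells of a type and less RNA per cell cannot be told apart. Whether this difference between the libraries plays a part in the results on the chains was not tested.

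Most of the tested stromal, muscle, vascular, and leukocyte chains were called higher in Gm31629-/- mice, whereas of the epithelial chains Lama5 was called higher, Itga2 was called lower, and the others were not called. Differences were tested by limma on log2(FPKM + 1) over the 14657 genes that averaged 0.5 FPKM or more. A gene counted as called when its log2 fold change passed 1 or -1 and its p, adjusted by Benjamini-Hochberg, was under 0.05. Of the 37 members, 31 passed the filter, 17 were called higher, and 1 was called lower, where 18.4% of all tested genes were called higher and 4.64% lower. Another 4 members, Itga4, Itgb5, Itga2b, and Lama2, had an adjusted p under 0.05 with a smaller log2 fold change, and 9 did not pass the adjusted p. Over all tested genes, 43.5% had an adjusted p under 0.05. The filter favored genes that were high in one group: 8 of the 31 members were below 0.5 FPKM on average in WT mice and entered through Gm31629-/- mice, and 5 of these 8 were called. Among the 23 others, 12 were called higher and 1 lower. No values overlapped between groups for 23 of the 31 tested members, 21 of them higher in Gm31629-/- mice, where 36.3% of all tested genes lay apart in that direction and 21.5% in the other. By class, 8 of 11 tested stromal, muscle, and vascular chains, 5 of 7 leukocyte chains, 3 of 4 broad or restricted chains, and 1 of 9 epithelial chains were called higher. The median log2 fold change of the tested chains was 2.52 in the stromal class, 1.50 in the leukocyte class, and -0.11 in the epithelial class, beside 0.15 over all tested genes.

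**Figure D1:**
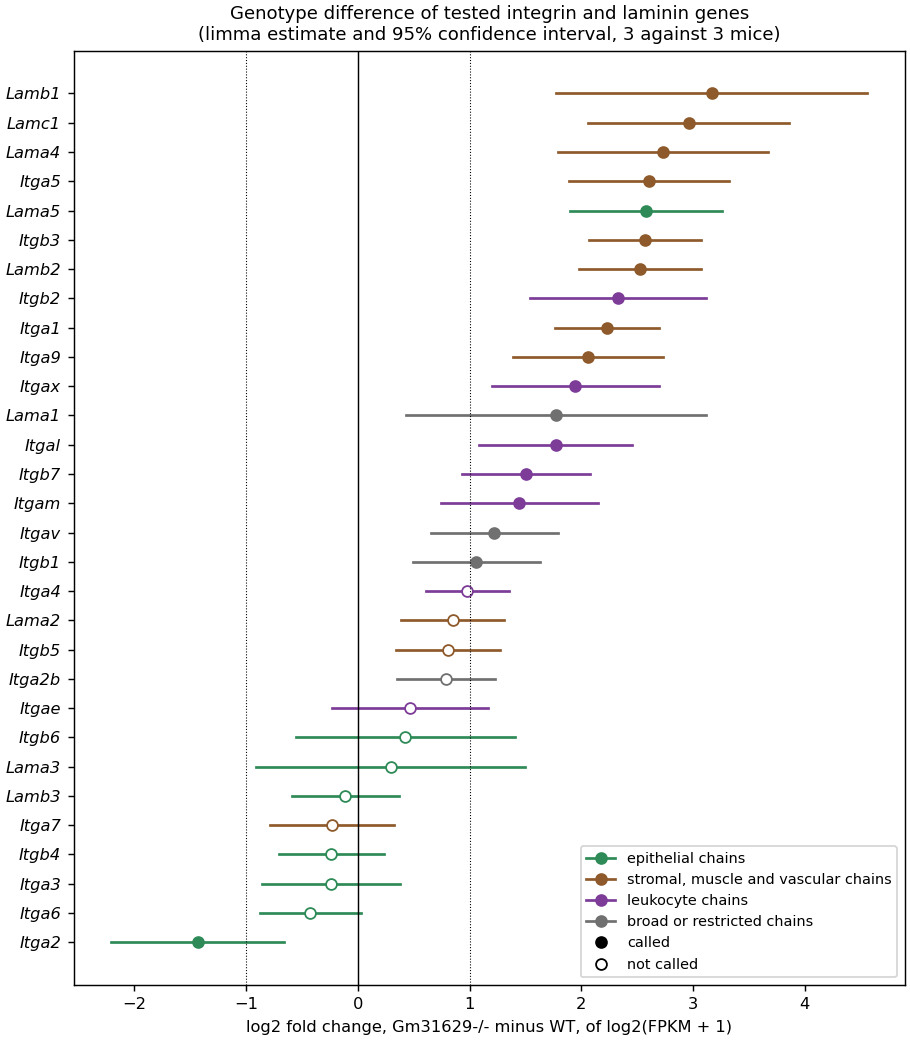
The log2 fold change of tested integrin and laminin genes (horizontal axis, Gm31629-/- minus WT on the log2(FPKM + 1) scale) is drawn with its 95% confidence interval from limma, with 1 row per gene, colors for the 4 classes, and filled points for called genes. Of the epithelial chains, Lama5 lies at 2.58 and Itga2 at -1.43, and the other epithelial chains drawn have open points with intervals that cover 0.

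Lama3 and Lamb3, chains of the laminin under epithelial cells that is bound by hemidesmosomes, did not pass the test in either direction. Lamb3 was the most abundant laminin chain of WT mice, with 45.6, 67.0, and 56.6 FPKM in WT mice 1 to 3, and it had 41.1, 56.9, and 58.3 FPKM in Gm31629-/- mice 1 to 3. The values overlapped, and the estimate was close to 0 (log2 fold change -0.11, 95% confidence interval -0.59 to 0.37, limma adjusted p = 0.682). Lama3 had 8.76, 14.9, and 8.13 FPKM in WT and then 5.18, 25.7, and 14.9 FPKM in Gm31629-/- mice (log2 fold change 0.30, interval -0.91 to 1.50, adjusted p = 0.664). The Gm31629-/- values of Lama3 lay on both sides of the WT range, and its interval leaves room for a difference in either direction, whereas that of Lamb3 does not reach 1 on either side.

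Of the 11 laminin chains, 10 were tested and 6 were called higher in Gm31629-/- mice, beside 18.4% of all tested genes. Lamc1, the gamma chain shared by most laminins of muscle, vessels, and epithelium, was at 2.04, 2.85, and 2.62 FPKM in WT libraries and at 13.6, 43.3, and 30.0 FPKM in Gm31629-/- libraries. All 3 Gm31629-/- values lay above the WT values, and the ratio of group means was 11.6 (log2 fold change 2.96, SE 0.38, limma adjusted p = 0.00145). Its usual beta partner Lamb1 had 1.11, 1.98, and 1.05 FPKM in the WT mice, against 6.52, 40.0, and 29.3 FPKM in Gm31629-/- mice (log2 fold change 3.17, adjusted p = 0.00568), which was the largest estimate among the 31 members. Mouse 1 had far less Lamb1 than mice 2 and 3 but more than every WT mouse. Lamb2, a beta chain of muscle, nerve, and vessel basement membranes, measured 1.17, 1.34, and 1.43 FPKM across the WT mice and 10.6, 17.7, and 9.91 FPKM across the Gm31629-/- mice (log2 fold change 2.52, adjusted p = 0.000467). The WT mice lay close together for Lamb2, and all Gm31629-/- mice were far above them.

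Among the laminin alpha chains, Lama5, which forms the main laminin of mature epithelium and of vessels, and Lama4, the alpha chain of endothelium and smooth muscle, were called higher in Gm31629-/- mice. Lama5 was at 1.10, 1.94, and 1.56 FPKM in WT libraries and at 8.80, 19.0, and 16.3 FPKM in Gm31629-/- libraries (log2 fold change 2.58, adjusted p = 0.00086). It was the only chain of the epithelial class that was called higher in this fit. Lama4 had 0.336, 0.428, and 0.295 FPKM in WT and then 3.58, 13.6, and 9.88 FPKM in Gm31629-/- mice, and its ratio of means was 25.5 (log2 fold change 2.73, adjusted p = 0.00226). Lama1, an alpha chain made in few adult tissues, had 0.114, 0.379, and 0.162 FPKM in WT mice but 0.525, 7.21, and 4.67 FPKM in Gm31629-/- mice, so mouse 1 was close to the WT range and mice 2 and 3 were far above it. Lama1 was called higher (log2 fold change 1.77, adjusted p = 0.0407), but it kept the call in 1 of the 6 fits that each left out 1 mouse, the one without Gm31629-/- mouse 1, and in the other 5 the adjusted p was 0.0826 to 0.123. It also lost the call without the filter on low values (adjusted p = 0.0844). Lama2, the alpha chain of muscle and nerve basement membranes, had 0.0165, 0.146, and 0.0326 FPKM in WT and then 0.486, 1.23, and 1.12 FPKM in Gm31629-/- mice (log2 fold change 0.85, adjusted p = 0.0123), below the fold threshold.

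The shares of the chains among the laminin transcripts lay apart between the genotypes. Lama3 was 84.8, 83.7, and 79.8% of the summed FPKM of the laminin alpha chains in WT mice 1 to 3 and 27.9, 38.5, and 31.8% in Gm31629-/- mice 1 to 3. Lama5 was 10.7, 10.9, and 15.3% and 47.4, 28.5, and 34.7%, and Lama4 was 3.25, 2.41, and 2.90% and 19.3, 20.4, and 21.1%. Lamb3 was 95.2, 95.3, and 95.8% of the beta chains in the WT mice, against 70.6, 49.7, and 59.8% in Gm31629-/- mice. For each of these 4 chains the shares of the groups did not overlap. A share within a chain type shows that the chains did not change equally, and not which of them changed.

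**Figure D2:**
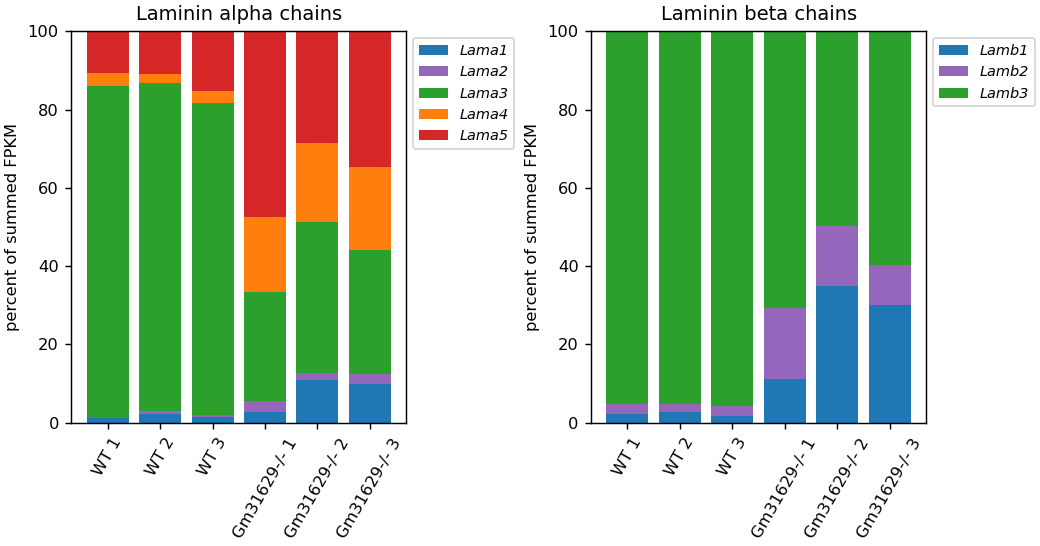
Stacked bars give each laminin gene as a percent of the summed FPKM of the alpha or beta chains (vertical axis), with 1 bar per mouse. Lama3 and Lamb3 fill 79.8% or more and 95.2% or more of the WT bars, and at most 38.5% and 70.6% of the Gm31629-/- bars.

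Integrins of the epithelial hemidesmosome did not pass the test in either direction. Itgb4, the beta chain that carries a long tail to the keratin cytoskeleton, had 53.0, 70.7, and 59.8 FPKM in the WT mice, against 40.2, 61.9, and 54.7 FPKM in Gm31629-/- mice, and the groups overlapped (log2 fold change -0.24, interval -0.70 to 0.23, adjusted p = 0.368). Its alpha partner Itga6 had 34.0, 29.4, and 28.0 FPKM in WT and then 24.0, 27.1, and 17.2 FPKM in Gm31629-/- mice. Every Gm31629-/- mouse was below every WT mouse for Itga6, but the difference did not pass the test (log2 fold change -0.42, interval -0.88 to 0.03, adjusted p = 0.114). After rescaling by the median ratio its adjusted p was 0.0292 at a log2 fold change of -0.59, below the fold threshold. Itga3, the other laminin-binding alpha chain of epithelium, was the most abundant integrin alpha chain in both groups, at 59.7, 74.5, and 67.6 FPKM in the WT mice, against 37.8, 77.0, and 62.2 FPKM in Gm31629-/- mice (log2 fold change -0.24, interval -0.85 to 0.37, adjusted p = 0.483). The Gm31629-/- values lay on both sides of the WT range. Itgb6, a chain that epithelium makes after injury and that with Itgav activates latent TGF-beta, measured 8.79, 8.83, and 6.30 FPKM across the WT mice and 6.56, 23.1, and 8.37 FPKM across the Gm31629-/- mice. The value of mouse 2 stood apart, and the other 2 Gm31629-/- mice were within the WT range (log2 fold change 0.43, interval -0.55 to 1.41, adjusted p = 0.433). Each library was also rescaled to 14 epithelial marker genes, the listed markers without Cdh1, of which 4 were themselves called lower before rescaling. The log2 fold changes of Itga3, Itga6, Itgb4, and Lamb3 were then 0.41, 0.21, 0.42, and 0.54, above 0 and not called. The median of all tested genes was then 0.65.

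Itga2 was the only member called lower. This alpha chain of the epithelial and platelet collagen receptor was at 15.5, 15.1, and 10.8 FPKM in WT libraries and at 3.49, 8.04, and 2.92 FPKM in Gm31629-/- libraries, without overlap, and was 2.86-fold lower by the ratio of means (log2 fold change -1.43, SE 0.33, limma adjusted p = 0.0122). It kept the call in 6 of 6 fits that left out a mouse, and lost it after rescaling to the epithelial markers (log2 fold change -0.85, adjusted p = 0.0625), where 21 members were called higher and 0 lower and, over all tested genes, 4657 were called higher and 234 lower in place of 2704 and 680. Its neighbor Itga1, the collagen-receptor alpha chain of smooth muscle, fibroblasts, and resident lymphocytes, moved the other way. Itga1 had 0.299, 0.460, and 0.249 FPKM in the WT mice, against 4.90, 6.89, and 4.25 FPKM in Gm31629-/- mice (log2 fold change 2.23, SE 0.20, adjusted p = 0.000415). The genes lie side by side on the minus strand of chromosome 13 of GRCm38, Itga2 (ENSMUSG00000015533) from 114833081 to 114932100 and Itga1 (ENSMUSG00000042284) from 114953096 to 115101964, with 21.0 kb between them.

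Differences between members were tested on the log2 ratio of 2 chains within each mouse, for pairs of chains of the same kind. All of these pairs but Lama5 and Lama3 set a stromal or leukocyte chain against an epithelial one. Each pair set a chain that was called higher against one that was not, so the choice of pairs favored a difference between groups. The ratios give the size of the differences and are no independent test of them. The log2 ratio of Itga1 to Itga2 was -3.46 ± 0.21 in WT mice and 0.21 ± 0.35 in Gm31629-/- mice (± SD, n = 3 per group), a difference of 3.66 (SE 0.24, two-sided exact permutation p = 0.1). The ratio of Lamb2 to Lamb3 differed by 2.64 (SE 0.27) and that of Lama5 to Lama3 by 2.28 (SE 0.36). The ratio of Itga5 to Itga3 differed by 2.85 (SE 0.13) and that of Itgb2 to Itgb6 by 1.90 (SE 0.26). The groups did not overlap for any of these 5 pairs, and each had an exact permutation p of 0.1, also after adjustment over the 6 pairs that were computed, which is the smallest that 3 mice against 3 allow.

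Promoter sequences are printed for the neighboring Itga1 and Itga2, which moved in opposite directions, for Lamb2 as a chain that was called higher, and for Lama2, in which a smooth muscle motif was found. They are RefSeq sequences on GRCm38.p6 from 250 bases before to 50 bases after a transcript start. Capitals mark matches on either strand to the CArG box bound by SRF, to the AP-1 motif TGANTCA, to the PU.1 motif GAGGAAG, or to the GC box GGGCGG. The windows are Itga1 at chr13:115101915-115102214 on the minus strand, Itga2 at chr13:114932051-114932350 on the minus strand, Lamb2 at chr9:108479612-108479911 on the plus strand, and Lama2 at chr10:27616893-27617192 on the minus strand. The Lama2 window lies wholly inside the gene model of Lama2, which runs from 26980036 to 27619758, so its start is not the outermost one.
Itga1: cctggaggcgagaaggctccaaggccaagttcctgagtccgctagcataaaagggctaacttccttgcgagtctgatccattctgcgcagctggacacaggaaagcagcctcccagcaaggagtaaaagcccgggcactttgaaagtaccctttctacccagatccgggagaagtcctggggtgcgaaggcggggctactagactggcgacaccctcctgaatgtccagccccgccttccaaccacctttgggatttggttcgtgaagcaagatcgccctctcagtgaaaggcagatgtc
Itga2: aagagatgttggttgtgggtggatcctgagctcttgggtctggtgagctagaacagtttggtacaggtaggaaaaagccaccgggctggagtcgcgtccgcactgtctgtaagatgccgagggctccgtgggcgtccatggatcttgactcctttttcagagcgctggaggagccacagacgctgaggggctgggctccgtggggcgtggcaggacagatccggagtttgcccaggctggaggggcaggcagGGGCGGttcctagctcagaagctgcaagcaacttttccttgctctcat
Lamb2: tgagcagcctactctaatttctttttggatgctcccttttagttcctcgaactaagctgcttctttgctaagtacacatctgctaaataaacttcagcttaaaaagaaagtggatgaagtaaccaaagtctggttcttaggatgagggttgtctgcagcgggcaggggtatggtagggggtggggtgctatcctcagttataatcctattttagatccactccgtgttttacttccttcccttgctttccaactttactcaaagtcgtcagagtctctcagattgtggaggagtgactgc
Lama2: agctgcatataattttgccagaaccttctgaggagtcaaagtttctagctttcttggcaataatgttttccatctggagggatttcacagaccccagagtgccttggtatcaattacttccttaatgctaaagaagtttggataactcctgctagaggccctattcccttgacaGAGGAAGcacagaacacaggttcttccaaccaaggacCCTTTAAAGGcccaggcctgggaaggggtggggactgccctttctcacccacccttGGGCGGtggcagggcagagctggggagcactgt
In Itga2 the GC box begins at position 3, counted from 1 at the transcript start. In Lama2 the CArG box begins at position -39, the PU.1 motif at -76, and the GC box at 18, and these matches do not overlap. The Itga1 and Lamb2 windows hold none of the 4 motifs.

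Promoters were found for 23 of the 37 members, 26 windows in all, and 13 motifs were searched in them. The CArG box, a motif of smooth muscle genes, was in 2 windows, of Itgb6 and Lama2, and in 1.63% of all 32851 windows. AP-1 was in 3 windows (Itga3, Itga9, and Itgax; 7.81% of all), PU.1 in 8 (Itga11, Itga2b, Itgam, Itgav, Itgb6, Itgb7, Lama2, and Lamb3; 13.6% of all), and the GC box in 12 (35.7% of all). The E-box, searched as CAGCTG or as CACGTG or as CAGGTG and its complement, was in 14 windows (37.7% of all), the CACCC box in 17 (57.5%), the SMAD motif CAGACA in 8 (21.0%), and the CCAAT box in 4 (37.4%). The TEAD motif GGAATG and the RUNX motif TGTGGT were in 3 windows each (14.7% and 16.8% of all), the ETS motif CCGGAAG was in 1 (8.86%), and the TATA box TATAAA (13.6%) and the HNF4 motif CAAAGTCCA (0.475%) were in 0. A match is a run of letters and not a shown binding site, and some windows hold several of them.

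Of the receptor chains for fibronectin, vitronectin, and tenascin described next, Itga5, Itgb1, Itgav, Itgb3, and Itga9 were called higher in Gm31629-/- mice and Itgb5 was not called. The group is not complete, and Itga4, Itga2b, and Itgb6, which are described in other paragraphs, were not called either. Itga5, the alpha chain of the main fibronectin receptor, measured 4.88, 5.96, and 5.43 FPKM across the WT mice and 24.7, 61.2, and 36.1 FPKM across the Gm31629-/- mice, a ratio of means of 7.50 (log2 fold change 2.61, SE 0.31, limma adjusted p = 0.00102). Its partner Itgb1, the most widely shared beta chain, was the most abundant member in Gm31629-/- mice, at 66.9, 66.5, and 53.0 FPKM in the WT mice, against 134, 176, and 93.6 FPKM in Gm31629-/- mice (log2 fold change 1.06, adjusted p = 0.0121). The groups did not overlap, but the estimate was just past the fold threshold. It fell short of it after rescaling by the median ratio (0.89) and without Gm31629-/- mouse 2 (0.85) or WT mouse 3 (0.95, adjusted p = 0.0551).

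Itgav, the alpha chain of the vitronectin and latent TGF-beta receptors, was at 3.73, 4.32, and 2.73 FPKM in WT libraries and at 8.25, 13.6, and 7.87 FPKM in Gm31629-/- libraries (log2 fold change 1.22, adjusted p = 0.00717). Without Gm31629-/- mouse 2 its log2 fold change was 0.99, just short of the fold threshold. Of its beta partners, Itgb3 was called, Itgb5 and Itgb6 were not, and Itgb8 was below the filter. Itgb3, carried by platelets, endothelium, and macrophages, had 0.495, 0.744, and 0.523 FPKM in the WT mice, against 6.79, 11.4, and 7.62 FPKM in Gm31629-/- mice (log2 fold change 2.57, adjusted p = 0.000342), the smallest adjusted p of the family. Itgb5 had 15.6, 20.7, and 17.7 FPKM in WT and then 26.4, 41.1, and 30.2 FPKM in Gm31629-/- mice, without overlap and with a log2 fold change of 0.81 below the fold threshold (adjusted p = 0.0161). Itga9, an alpha chain of smooth muscle, lymphatic endothelium, and neutrophils that binds tenascin, had 0.246, 0.325, and 0.125 FPKM in WT and then 2.63, 6.89, and 3.70 FPKM in Gm31629-/- mice (log2 fold change 2.06, adjusted p = 0.00188).

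Itga7 was the chain of the stromal, muscle, and vascular class whose groups overlapped. It encodes the laminin-binding alpha chain of skeletal and smooth muscle, and it measured 4.75, 9.68, and 7.02 FPKM across the WT mice and 6.28, 5.61, and 5.33 FPKM across the Gm31629-/- mice. The Gm31629-/- values lay inside the WT range, and the difference did not pass the test (log2 fold change -0.23, interval -0.79 to 0.33, adjusted p = 0.457). In the same libraries the smooth muscle markers had a ratio of mean sums of 50.8. Of 7 skeletal muscle markers 3 were tested and Ckm was called higher. Acta1, which made up most of their sum, had 104, 38.3, and 6.24 FPKM in Gm31629-/- mice 1 to 3 and was not called (adjusted p = 0.212). After rescaling to the epithelial markers the log2 fold change of Itga7 was 0.34, not called. Itga2b, the platelet alpha chain, had 0.0892, 0.234, and 0.166 FPKM in WT and then 0.927, 1.49, and 0.689 FPKM in Gm31629-/- mice (log2 fold change 0.79, adjusted p = 0.0133). Of 8 platelet markers 2 were tested: Pf4 was called higher, with group means of 1.71 FPKM (WT) and 14.2 FPKM (Gm31629-/-), and Gp1bb was not called, with means of 7.38 and 4.19 FPKM.

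**Figure D3:**
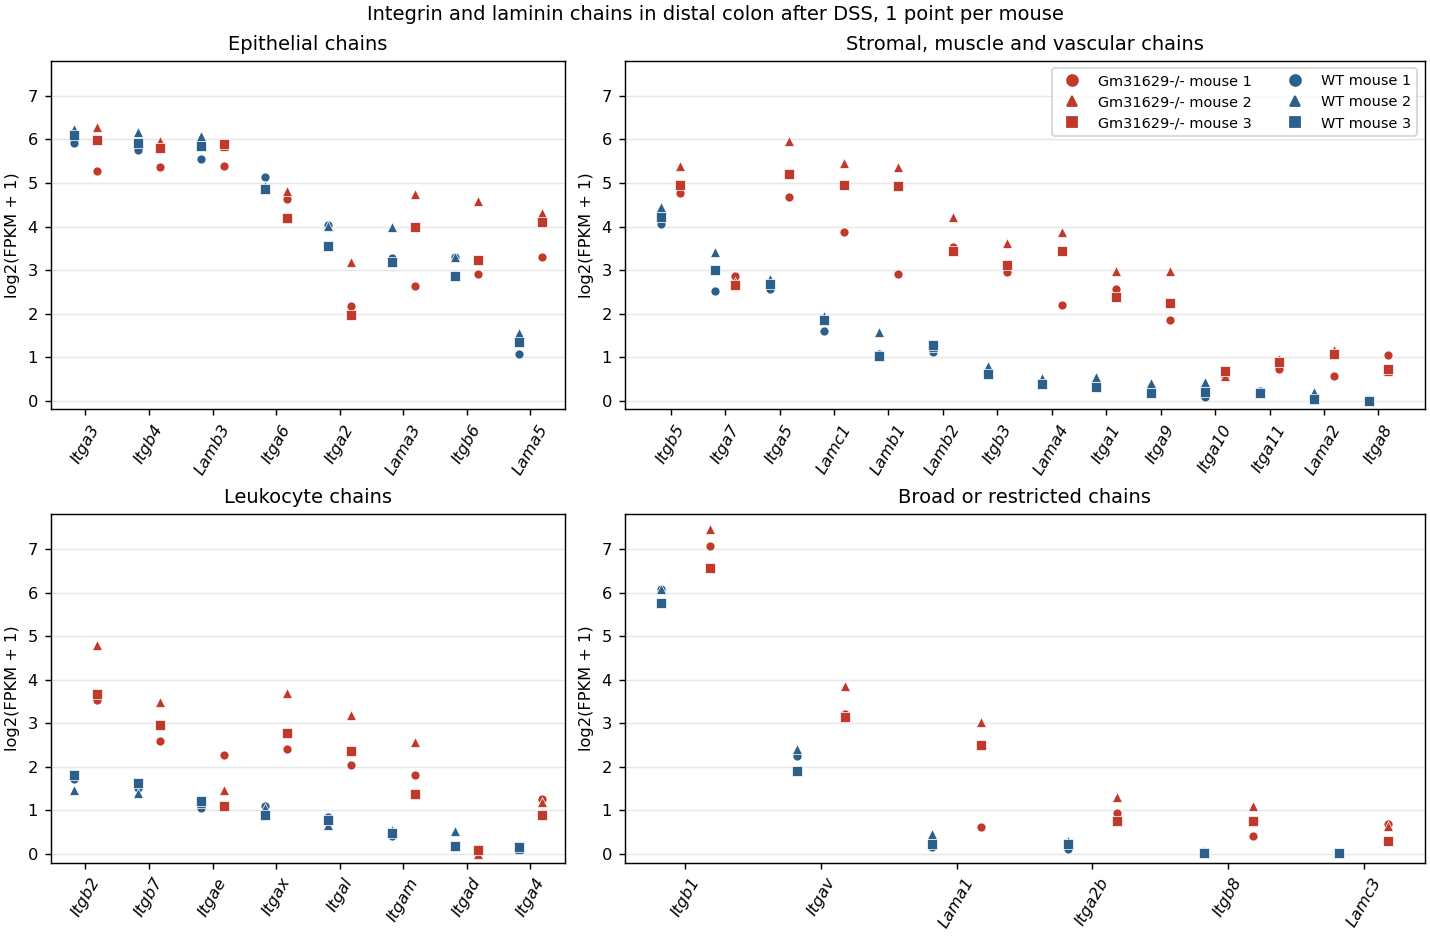
Each point is the log2(FPKM + 1) of 1 integrin or laminin gene in 1 mouse (vertical axis), with genes along the horizontal axis in 4 panels by class, ordered by their WT mean, WT mice in blue and Gm31629-/- mice in red. The groups are apart for 10 of the 11 tested stromal, muscle, and vascular chains, with Itga7 as the exception, and for Itga8, Itga10, and Itga11 below the filter. They are also apart for the epithelial chains Lama5, Itga2, and Itga6. Over all tested genes, 36.3% lay apart with Gm31629-/- mice higher and 21.5% with them lower.

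Of the leukocyte integrins, 5 of 7 tested chains were called higher in Gm31629-/- mice, beside 18.4% of all tested genes. Itgb2, the beta chain shared by leukocytes, was at 2.30, 1.77, and 2.51 FPKM in WT libraries and at 10.5, 26.6, and 11.7 FPKM in Gm31629-/- libraries, so mouse 2 had more than the other 2 together (log2 fold change 2.33, SE 0.33, limma adjusted p = 0.00209). Of its alpha partners, Itgax of dendritic cells and macrophages had 1.15, 1.09, and 0.853 FPKM in the WT mice, against 4.34, 11.9, and 5.89 FPKM in Gm31629-/- mice (log2 fold change 1.95, adjusted p = 0.00343). Itgal, found on lymphocytes and other leukocytes, had 0.798, 0.583, and 0.729 FPKM in WT and then 3.14, 8.10, and 4.18 FPKM in Gm31629-/- mice (log2 fold change 1.77, adjusted p = 0.0035). Both were highest in mouse 2, and the groups did not overlap. Itgam of neutrophils and monocytes had 0.323, 0.464, and 0.392 FPKM in WT and then 2.52, 4.97, and 1.58 FPKM in Gm31629-/- mice, with the highest value again in mouse 2 (log2 fold change 1.44, adjusted p = 0.00836). An overlapping gene model on the same strand, Gm49368, shares 68.7% of the exon bases of Itgam, so fragments of Itgam could have been set aside or split.

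Itgb7, the beta chain of gut-homing and mucosal lymphocytes, rose from 1.87, 1.62, and 2.11 FPKM to 5.03, 10.3, and 6.85 FPKM (log2 fold change 1.50, adjusted p = 0.00334). Its alpha partners were not called. Itga4, which with Itgb7 binds the vascular address protein Madcam1, measured 0.101, 0.0874, and 0.114 FPKM across the WT mice and 1.41, 1.30, and 0.857 FPKM across the Gm31629-/- mice (log2 fold change 0.98, adjusted p = 0.00329), just under the fold threshold and without overlap. Itgae, which with Itgb7 holds lymphocytes to the E-cadherin of the epithelium, was at 1.06, 1.26, and 1.32 FPKM in WT libraries and at 3.84, 1.79, and 1.13 FPKM in Gm31629-/- libraries. The highest of these was mouse 1 and mouse 3 was within the WT range (log2 fold change 0.47, interval -0.23 to 1.17, adjusted p = 0.236). Beside these values, 9 of 10 macrophage, 8 of 9 tested neutrophil, and 5 of 10 T cell markers were called higher, where 18.4% of all tested genes were. The 10 T cell markers summed to 8.48 to 13.1 FPKM in WT mice and 22.3 to 43.0 FPKM in Gm31629-/- mice, with the highest sum in mouse 1. Their part in the integrin values was not tested.

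The 6 members below the filter were counted in fragments, recovered from FPKM and exon length. Itga8, an alpha chain of smooth muscle and mesenchyme, had 0, 3, and 0 fragments in the WT libraries against 144, 81, and 88 in those of Gm31629-/- mice, a ratio of 104 (95% exact interval 35.4 to 509). Lamc3, a gamma chain of few tissues, had 1, 3, and 1 and then 69, 64, and 25 fragments (ratio 31.6, interval 13.3 to 98.8). Itgb8, a chain of dendritic cells, glia, and epithelium that with Itgav activates latent TGF-beta, had 4, 10, and 4 and then 67, 233, and 140 fragments (ratio 24.5, interval 15.3 to 41.7). Itga11, a collagen receptor of fibroblasts, had 15, 12, and 12 and then 62, 89, and 79 (ratio 5.91, interval 4.19 to 8.52). Itga10 had 5, 33, and 15 and then 46, 46, and 58 (ratio 2.83, interval 2.06 to 3.95), and another gene model on the same strand covers 33.5% of its exon bases. Itgad, a leukocyte alpha chain, shares 10.2% of its exon bases with gene models on the other strand, and the libraries do not mark strand. It was alone in the other direction, with 9, 35, and 12 and then 7, 0, and 5 fragments, 4.66-fold lower (interval 2.47 to 9.55). These intervals cover counting error only, and the spread between mice is wider, as the 3 WT values of Itgad show. In the fit without the filter, Itga8, Itga11, Itgb8, and Lamc3 reached adjusted p-values of 0.00656, 0.0071, 0.0296, and 0.0213, at log2 fold changes from 0.52 to 0.80, and Itga10 and Itgad reached 0.0591 and 0.177, so none of the 6 was called. In that fit 16 of the 37 members were called higher and 1 lower, where 9.21% of 27546 genes were called higher and 2.25% lower.

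Itgam, Itgax, and Itgad lie in a row on the plus strand of chromosome 7, from 128062640 to 128118491, from 128129547 to 128150657, and from 128154376 to 128223816, with 11.1 kb and 3.72 kb between them. The first 2 were called higher and Itgad, at 0.227 ± 0.178 FPKM in the WT mice, against 0.0482 ± 0.0435 FPKM in the others (± SD, n = 3 per group), was not tested in the filtered fit. Itgal lies 728 kb before Itgam on the same strand.

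The order of the levels changed with genotype for some chains and not for others. In WT mice the integrin alpha chains ran from Itga3 (67.3 FPKM) through Itga6 (30.5), Itga2 (13.8), Itga7 (7.15), and Itga5 (5.42) to Itgav (3.59), and the highest value of any other alpha chain in a WT mouse was 1.32 FPKM, for Itgae. The ranges of Itga7 and Itga5 overlapped, and the others in this row did not. In Gm31629-/- mice Itga3 (59.0 FPKM) was followed by Itga5 (40.7), Itga6 (22.8), and Itgav (9.90). There the range of Itga5 overlapped those of Itga3 and Itga6. Itga5 was 3.84, 4.13, and 4.31% of the summed alpha chains in the WT mice, against 19.0, 25.7, and 23.2% in Gm31629-/- mice, and Itga2 was 12.2, 10.5, and 8.56% and 2.67, 3.38, and 1.87%. Among the beta chains Itgb1 and Itgb4 led in both groups, and their ranges overlapped in WT mice only. Itgb4 was 35.6, 41.4, and 42.1% of the summed beta chains in the WT mice, against 17.5, 17.6, and 25.6% in Gm31629-/- mice.

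The Gm31629-/- mice were not alike. Mouse 2 was the highest of the 3 for 27 of the 31 tested members, and mouse 1 was the lowest for 20, where the shares over all tested genes were 44% and 31.9%. The 11 laminins summed to 109, 303, and 211 FPKM in Gm31629-/- mice 1 to 3 and to 82.9, 123, and 93.9 FPKM in WT mice 1 to 3, so mouse 1 lay inside the WT range. The epithelial chains summed to 185, 377, and 271 FPKM against 249, 314, and 261 FPKM in WT mice, so mouse 1 was the lowest and mouse 2 the highest of the 6. The stromal, muscle, and vascular chains summed to 109, 251, and 170 FPKM against 31.1, 45.1, and 36.8 FPKM in WT mice, and the leukocyte chains to 30.9, 64.9, and 32.3 FPKM against 7.71, 7.30, and 8.18 FPKM. Mouse 2 also had the highest sum of fibroblast, endothelial, and macrophage markers, and mouse 1 the highest sum of smooth muscle markers. With each mouse left out in turn, 14 to 19 members were called higher and 1 was called lower. The fewest were called without Gm31629-/- mouse 2 and the most without Gm31629-/- mouse 1, whose library was the one with Y-linked transcripts.

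Genes that work with integrins and laminins were read from 5 lists with 70 genes, of which 63 were tested, 38 were called higher, and 1 was called lower, where the shares over all tested genes were 18.4% and 4.64%. Of 14 basement membrane partners, 12 were tested and 9 called higher. The collagen chains Col4a1 and Col4a2 led with log2 fold changes of 3.95 and 3.80, and Ntn4 and Agrn, a heparan sulfate proteoglycan, were at the other end, with 0.50 and -0.53 and no call. Of 15 matrix ligands, all of them tested, 14 were called higher. Fn1, the fibronectin bound by Itga5, went from 1.76 ± 0.604 to 77.6 ± 42.4 FPKM (± SD, n = 3 per group, log2 fold change 4.73, limma adjusted p = 0.000281), followed by Col6a1 (3.89). The lowest were Vtn, vitronectin (1.04), and Npnt, a ligand of Itga8 (0.86, not called). The matrix ligands Col1a1, Col1a2, Col3a1, and Col6a3 stand in the fibroblast marker list as well.

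Of 8 partner proteins of leukocyte integrins, 6 were called higher. Madcam1 had 0.568 ± 0.218 FPKM in the WT mice, against 17.5 ± 7.37 FPKM in Gm31629-/- mice (log2 fold change 3.49, adjusted p = 0.000374), and Vcam1, the vascular partner of Itga4, had a log2 fold change of 2.70. E-cadherin, Cdh1, the partner of Itgae and also one of the epithelial markers, was at 405 ± 20.1 and 395 ± 46.5 FPKM (log2 fold change -0.04, interval -0.41 to 0.33), and F11r was not called either (0.30). Of 22 cytoplasmic adhesion proteins, 21 were tested and 7 were called higher. Tns1 (3.96) and Fermt2 (3.93), the kindlin of mesenchymal cells, were highest, whereas Fermt1, the kindlin of epithelium, had 19.1 ± 2.07 FPKM in the WT mice, against 12.7 ± 1.76 FPKM in Gm31629-/- mice (log2 fold change -0.55, adjusted p = 0.0279, below the fold threshold), and Bcar1 had -0.37. Of 11 hemidesmosome genes and other laminin receptors, 7 were tested. Bcam, a receptor for Lama5, went from 1.37 ± 0.327 to 19.0 ± 5.19 FPKM (log2 fold change 3.05, adjusted p = 0.000242), and Sgcb, a sarcoglycan, rose by 1.68. Dag1, the dystroglycan that links laminins to the cytoskeleton, fell from 68.3 ± 7.01 to 32.7 ± 2.30 FPKM (log2 fold change -1.04, adjusted p = 0.00168), but was not called without Gm31629-/- mouse 2, without WT mouse 3, or after rescaling to the epithelial markers, and Cd151, the partner of Itga3 and Itga6, did not pass the test (-0.05).

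Markers of the cells that carry these chains moved in the same libraries. Of the 15 epithelial markers, 4 were called lower and 0 higher by limma, with 12 of 15 log2 fold changes below 0, and 7 of the 15 had an adjusted p under 0.05. Over all tested genes, 43.5% had an adjusted p under 0.05, 18.4% were called higher, and 4.64% were called lower. Called higher were 10 of 11 tested smooth muscle markers, 10 of 10 fibroblast markers, 10 of 10 endothelial markers, 3 of 3 tested lymphatic endothelial markers, and 9 of 10 markers of enteric neurons and glia. The sums in WT and Gm31629-/- mice were 18.2 to 38.9 and 210 to 593 FPKM for fibroblasts, 2.95 to 8.15 and 67.0 to 122 FPKM for endothelium, 68.2 to 87.9 and 598 to 1294 FPKM for macrophages, and 70.4 to 128 and 535 to 1032 FPKM for neutrophils. Ratios of mean sums were 15.1 for fibroblasts, 18.5 for endothelium, 11.4 for macrophages, and 8.09 for neutrophils. They were smaller for lymphocytes, at 2.95 for T cells and 2.20 for B and plasma cells. Beside these, they were 4.68 for the stromal, muscle, and vascular chains, 5.52 for the leukocyte chains, and 1.01 for the epithelial chains. Ly6g made up most of the neutrophil sum in each library, with 66.7, 121, and 80.8 FPKM in WT and 288, 596, and 965 FPKM in Gm31629-/- mice. Its ratio of means was 6.87, and that of S100a9, the next largest neutrophil marker, was 25.9. Of the squamous markers, which would mark tissue of the anal canal, 2 of 8 were tested and 0 were called by limma, 1 of the 2 had an adjusted p under 0.05, and their sum was at most 5.03 FPKM in any library. For mast cells 0 of 4 tested markers were called, 1 of them with an adjusted p under 0.05, for skeletal muscle 1 of 3, for adipocytes 3 of 4, for B and plasma cells 6 of 9, and for platelets 1 of 2. The part of these cells in the values of the chains was not tested.

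**Figure D4:**
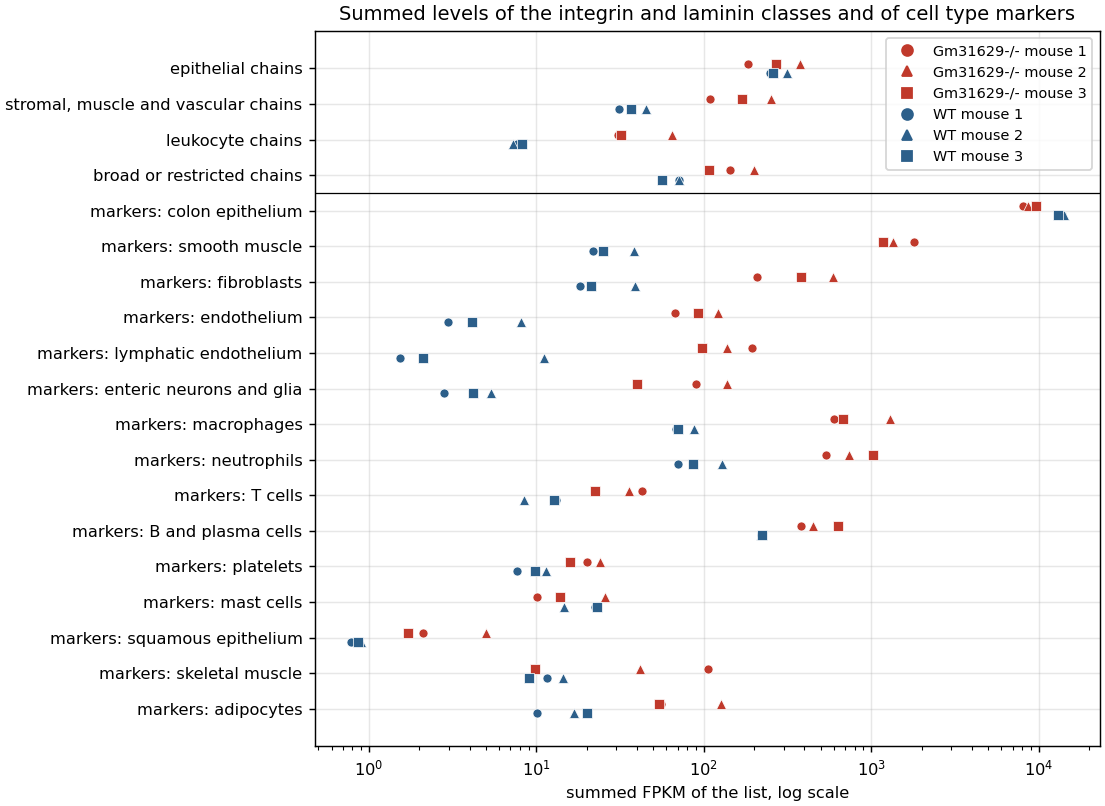
Summed FPKM per mouse (horizontal axis, log scale) of the 4 classes of integrin and laminin genes, above the line, and of 15 marker lists, below it, with WT mice in blue and Gm31629-/- mice in red. The sums of the stromal and leukocyte chains and of the smooth muscle, fibroblast, endothelial, and macrophage markers lie apart between the groups, whereas the sums of the epithelial chains overlap.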

How the data were processed

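RNA-Seq was performed on distal colon tissue of 3 Gm31629-/- and 3 WT mice treated with DSS. The authors deposited 1 table of FPKM values with 1 column per library. Per the submitters' processing notes HISAT2 2.1.0, HTSeq 0.6.0, and GRCm38 were used, and the annotation release is not given in the sources used here. The methods speak of RNAs pooled from the mice of each group, whereas the table has a column per mouse, and libraries were treated as separate mice. If they were not, p-values measure only the spread between libraries. Symbols and exon lengths came from GENCODE M21 (GRCm38) and matched 27488 of 27546 identifiers, and promoter sequences came from RefSeq. The TruSeq kit used does not mark strand.

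The paper names DEGseq for counts. Because the deposited unit is FPKM, limma 3.58.1 (R 4.3.3; lmFit, eBayes with a trend) was fitted to log2(FPKM + 1) of all genes with a mean of at least 0.5 FPKM, with Benjamini-Hochberg adjustment over all of them. This scale understates changes of low genes. Whole fragments were recovered from FPKM, exon length, and the size of 1 fragment. In each library 96.3% to 97.2% of values of at most 20 fragments were whole within 0.1. A value of 0 stands for 0 recovered fragments and leaves room for an expected count of up to 3. No libraries of a group were duplicates (chi-square of 29.5 to 133 per gene between them). Fits were tested on simulated data with independent genes and equal spread in both groups. This is a simpler setting than that of these libraries, and its outcome is not quoted here. Other settings were a pseudocount of 0.1, no filter, 3 rescalings, the replicate number as a block, an unadjusted p, voom on recovered fragments, and leaving out each mouse. The rule for naming took every integrin and laminin gene, of which 1 is not reported here by name though it is in the counts and sums, and of each other list the 2 genes with the largest and the 2 with the smallest log2 fold change. The members and lists were chosen with earlier results of these data known. Figures were drawn with matplotlib 3.10.9.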

Additional observations from a re-analysis of the deposited data

How the results depend on the processing

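Of 31 tested members, 31 kept their direction and their call or lack of one on the TPM scale and with an unadjusted p, 30 after rescaling by the median ratio (not Itgb1) and without the filter (not Lama1), and 28 with a pseudocount of 0.1, where Itga2b, Itga4, and Lama2 were called as well. Itga6 passed the adjusted p but not the fold after the median ratio. With voom on recovered fragments 27 did, since these 3 were called and Lama1 was not. With the replicate block 17 members were called higher and 1 lower, and 37 other adhesion genes were called higher. The numbers do not pair the mice: same-numbered mice had correlations of 0.036, -0.11, and 0.014 across genes, and Gm31629-/- mice 2 and 3 correlated best with another number. The block changed no call of a member. The median log2 fold change of all tested genes was 0.15 as deposited, 0.017 after the median ratio, and 0.65 after rescaling to 14 epithelial markers. In the last, 4657 genes were called higher and 234 lower in place of 2704 and 680, 0 members and 0 other adhesion genes were called lower, Itga2 being short of the adjusted p, and Itga3, Itga6, Itga7, Itgb4, and Lamb3 turned to 0.41, 0.21, 0.34, 0.42, and 0.54. With the median ratio, 2377 genes were called higher and 994 lower, with a pseudocount of 0.1 3700 and 983, and with voom 3651 and 992.

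With each mouse left out, 2285 to 2892 genes were called higher and 513 to 766 lower, 14 to 19 members higher and 1 lower, and 34 to 39 other adhesion genes higher and 0 to 1 lower, the 0 being without Gm31629-/- mouse 2 or WT mouse 3, where Dag1 lost its call. In these fits the log2 fold change of Itga3 ran from -0.46 to 0.046, of Itgb6 from -0.078 to 0.76, of Lama3 from -0.18 to 0.87, and of Lamb3 from -0.25 to 0.047, and none of these 4 was called. Depth limits what can be said of Itga8 and Lamc3 in WT mice, with 3 and 5 fragments over the 3 libraries.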
